A study of Mus musculus with 4 samples.

Results

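The genes described here are *Hprt*, which encodes the hypoxanthine and guanine salvage enzyme, and 9 further enzymes of purine nucleotide synthesis, namely *Aprt*, *Ppat*, *Gart*, *Paics*, *Adsl*, *Atic*, *Impdh1*, *Impdh2* and *Gmps*. They were selected by gene symbol and make up 10 of the 23038 genes in the tables of gene levels. Of the 38240 alternative splicing events, with each pair of isoforms counted as an event, 23 are theirs. *Hprt* was chosen by its own level in these data, so its difference between the groups is a description. The other 9 genes were chosen by their function. RNA of E14.5 (day of gestation) mouse cortex was sequenced from 2 control embryos (*Qk* fl/fl) and 2 *Qk* cKO embryos (Nestin-Cre:*Qk* fl/fl), described as littermates. Both groups carry the floxed *Qk* alleles, and *Qk* cKO embryos carry the Cre transgene in addition. Cre under the *Nestin* promoter acts in neural progenitors and their progeny, while vessels, blood and meninges in the same tissue keep *Qk*. *Qk* encodes Qki, an RNA-binding protein that regulates splicing and the stability of its target transcripts. The comparison of the groups asks whether the loss of Qki in the cortex came with different levels or splicing of the transcripts of purine synthesis.

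Purine nucleotides are the building blocks of RNA and DNA and the source of ATP and GTP. Cells make them by 2 routes. In the de novo route the purine ring is built in steps on phosphoribosyl pyrophosphate (PRPP), up to inosine monophosphate (IMP), from which AMP and GMP branch off. In the salvage route *Hprt* and *Aprt* attach free bases to PRPP. Inherited loss of HPRT in humans causes Lesch-Nyhan disease, a neurological disorder, and the mouse gene is also widely used as a reference in PCR assays.

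The promoters of these genes share a feature that the choice of genes did not use. All 10 genes were matched in a RefSeq table of promoter windows (GRCm38.p6), each of 300 nt around the start of the gene, which gave 11 windows because *Impdh1* has 2. The window of *Hprt* is chrX:52987828-52988127 on the plus strand, that of *Paics* chr5:76951052-76951351 on the plus strand, and that of *Ppat* chr5:76951529-76951828 on the minus strand. They are shown because *Hprt* is the gene with the different level and because *Ppat* and *Paics*, the first step and a later double step of the de novo route, are arranged head to head. Each is written 5′ to 3′ along its own gene, with the GC box GGGCGG, or its reverse complement, in capitals.
*Hprt*: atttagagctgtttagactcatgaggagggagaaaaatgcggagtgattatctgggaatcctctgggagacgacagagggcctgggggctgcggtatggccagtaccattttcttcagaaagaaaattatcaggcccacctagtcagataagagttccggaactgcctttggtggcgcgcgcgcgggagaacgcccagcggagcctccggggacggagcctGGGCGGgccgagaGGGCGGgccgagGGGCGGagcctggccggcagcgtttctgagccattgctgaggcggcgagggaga
*Ppat*: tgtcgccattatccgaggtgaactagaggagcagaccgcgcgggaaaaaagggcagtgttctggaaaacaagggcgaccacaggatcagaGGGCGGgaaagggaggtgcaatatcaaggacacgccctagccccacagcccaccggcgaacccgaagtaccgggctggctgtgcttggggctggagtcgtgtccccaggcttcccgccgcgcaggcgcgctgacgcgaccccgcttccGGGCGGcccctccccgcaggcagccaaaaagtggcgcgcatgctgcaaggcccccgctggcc
*Paics*: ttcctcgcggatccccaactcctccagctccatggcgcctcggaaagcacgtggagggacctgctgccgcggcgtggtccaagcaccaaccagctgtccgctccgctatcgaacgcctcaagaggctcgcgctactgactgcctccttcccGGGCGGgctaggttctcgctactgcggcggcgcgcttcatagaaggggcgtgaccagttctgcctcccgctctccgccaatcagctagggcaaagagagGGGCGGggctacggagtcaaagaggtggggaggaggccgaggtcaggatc
The GC box, searched on both strands with overlapping matches counted, was present in 11 of the 11 windows, against 35.7% of all 32851 windows in the table. The window of *Hprt* holds 3 matches and those of *Ppat* and *Paics* 2 each. The E box CACGTG was found in 3 of the 11 windows (*Paics*, *Atic* and *Impdh2*) against 7.15% of all windows, the letters CCAAT in 4 against 37.4%, and the TATA box TATAAA in 2 (*Impdh2* and *Gmps*) against 13.6%. The windows of these genes had between 14 and 28 CpG dinucleotides with a median of 24, and the median over all windows was 7. Their median GC content was 61.7%, and that of all windows 52.7%. The comparison with all windows was not matched for base composition, so it does not show the GC box to be particular to these genes. Such a match describes the letters in the window and is not a measured binding site.

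*Ppat* and *Paics* overlap by 277 nt at their 5′ ends according to RefSeq, or by 272 nt according to GENCODE M21. The library kit, Illumina TruSeq RNA v2, does not mark the strand. Tags wholly within the shared stretch and without a splice junction therefore cannot be attributed to either gene. Pseudogenes with the symbols *Aprt-ps* and *Impdh2-ps* are annotated in the mouse genome, and tags of *Aprt* and *Impdh2* depend on how reads shared with them were assigned.

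Qki binds RNA at the letters ACUAAC, written ACTAAC in the DNA alphabet, often next to a second shorter element. In the longest coding transcript of each gene in GENCODE M21, ACTAAC occurred once in *Ppat* and once in *Gmps*, both times after the coding sequence, and not in the other 8 genes, *Hprt* included. Of the longest coding transcripts of all 21877 genes, 26.1% hold these letters. The matches are shown with 12 nt on each side and ACTAAC in capitals, because they are the only copies in these transcripts.
*Ppat*: ttgagatgatttACTAACtcctgtttgtgt
*Gmps*: aacatcttttctACTAACttctggagaagg
They start at position 3214 of Ppat-202 and position 3152 of Gmps-201. No binding was measured in these data.

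The libraries held between 37942046 and 42994832 tags on genes, a tag being the unit in which Quantas counts, and 17555 to 17676 genes had at least 1. The 10 genes together took 0.0852% and 0.0799% of the tags in control replicates 1 and 2 and 0.0869% and 0.0864% in *Qk* cKO replicates 1 and 2. The whole-gene level of *Qk* was higher in *Qk* cKO, with RPKM values of 21.1 and 21.7 in control and 32.5 and 34.2 in *Qk* cKO, but most of this transcript lies outside the deleted exon, so the level does not check the deletion. Both replicate 1 embryos had tags on *Xist*, 57.1 RPKM in control and 64.5 RPKM in *Qk* cKO, and none on the Y-linked genes *Ddx3y*, *Eif2s3y*, *Kdm5d* and *Uty*. Both replicate 2 embryos had *Xist* below 0.03 RPKM and tags on all 4 Y-linked genes. Each group thus held 1 embryo of either kind. Nothing in the sample labels ties samples of the same number together.

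The levels of the 10 genes, in RPKM (tags scaled by exon length and by the total of tags in the library), differed widely among themselves and kept nearly the same order in all 4 embryos. *Paics* was highest, with a mean of 135.5 RPKM over the 4 embryos, above 97.9% of the genes with at least 1 tag. *Aprt* followed with 50.7 RPKM, *Impdh2* with 40.3, *Gart* with 35.4, *Hprt* with 33.4, *Adsl* with 27, *Gmps* with 23.8, *Impdh1* with 18.8, *Atic* with 17.6, and *Ppat* was lowest with 6.55. *Paics* and *Aprt* held the first and second place, and *Impdh1*, *Atic* and *Ppat* the last 3 places, in 4 of 4 embryos. Neighbours in the middle of the order were not separated in every embryo. *Gart* exceeded *Hprt* in 2 of 4 embryos, both of them controls, *Hprt* exceeded *Adsl* in 3, and *Adsl* exceeded *Gmps* in 3. Ranked from the top of the 10 genes, *Hprt* stood at 5 and 6 in the controls and at 4 and 3 in *Qk* cKO. The lengths used for RPKM come from the deposited tables and differ from those of the longest coding transcript for some genes, such as *Paics* with 1623 nt against 2482 nt and *Gmps* with 4567 nt against 8105 nt.

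**Figure D1:**
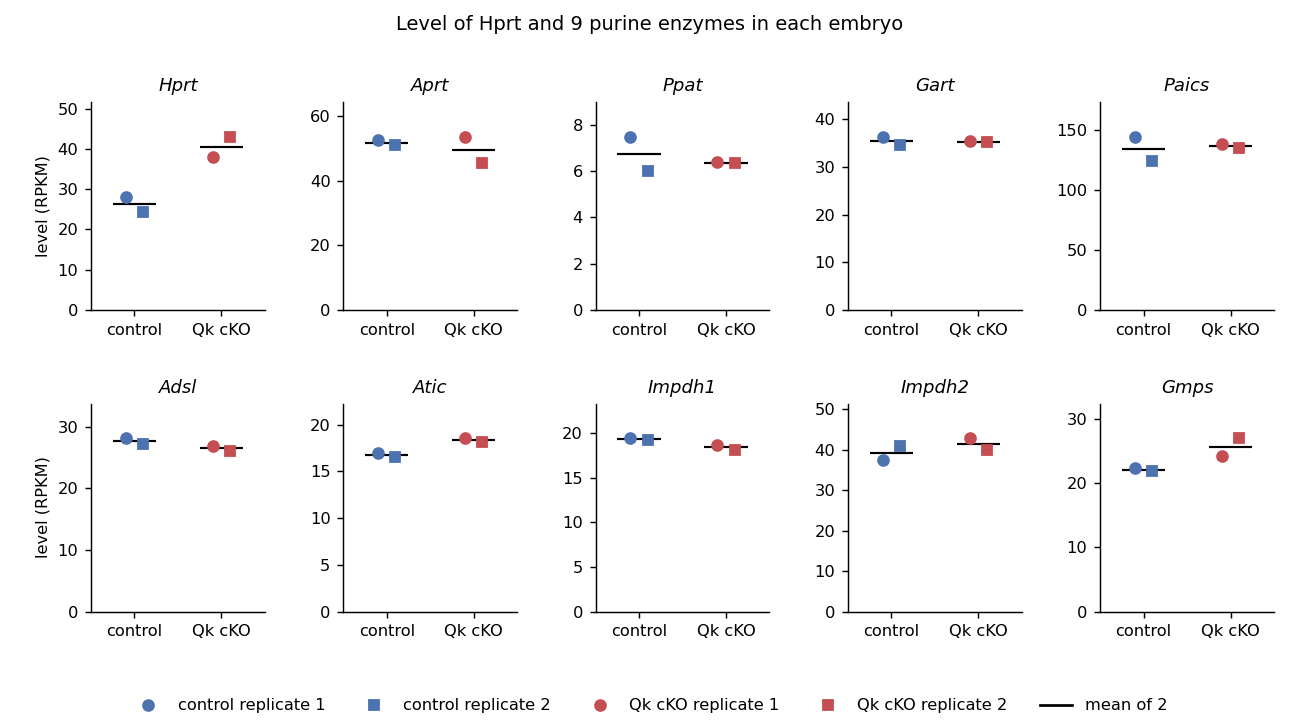
Level of each gene in RPKM (vertical axis, starting at 0) in the 2 control embryos (blue) and the 2 *Qk* cKO embryos (red), with circles for replicate 1, squares for replicate 2 and a line at the mean of each group. *Hprt* lay between 24.3 and 28.1 RPKM in control and between 38.0 and 43.1 RPKM in *Qk* cKO, whereas *Ppat*, *Gart* and *Paics* overlapped between the groups.

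Of the 2 salvage enzymes, *Hprt* differed in level and *Aprt* was not called. *Hprt*, which converts hypoxanthine to IMP and guanine to GMP, had 28.1 and 24.3 RPKM in control replicates 1 and 2 and 38.0 and 43.1 RPKM in *Qk* cKO replicates 1 and 2. Both *Qk* cKO embryos lay above both controls, with 2205 and 2386 tags against 1573 and 1243. The mean was 26.2 ± 2.73 RPKM in control and 40.5 ± 3.57 RPKM in *Qk* cKO (SD, n = 2 each), and the fitted log2 fold change was 0.64 with a standard error of 0.105, or 1.56-fold. These values, and the call of *Hprt* as higher that they gave, chose the gene and are a description only. Without control replicate 1 the log2 fold change was 0.75 and without control replicate 2 it was 0.53, and in either case, as with edgeR's filterByExpr (0.64), *Hprt* was no longer among the genes called. Among the 12569 genes with a mean of at least 1 RPKM in both groups, *Hprt* had the 26th largest log2 fold change. Between embryos of the same number, which also match in *Xist*, *Hprt* differed by 0.43 on the log2 RPKM scale in replicate 1 and by 0.83 in replicate 2. The Xist-positive embryo was the higher in control and the lower in *Qk* cKO. *Hprt* is on the X chromosome (chrX:52988078-53021660, mm10).

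*Aprt*, which converts adenine to AMP, had 52.7 and 51.0 RPKM in control and 53.7 and 45.4 RPKM in *Qk* cKO. The groups overlapped, and the values of the *Qk* cKO embryos enclosed those of the controls. The fitted log2 fold change was -0.051 with a standard error of 0.109 (95% confidence interval -0.28 to 0.18, FDR 0.932 in edgeR's quasi-likelihood test). The ratio of *Hprt* to *Aprt*, both in RPKM, was 0.534 and 0.476 in control and 0.708 and 0.948 in *Qk* cKO.

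Of all 18834 genes tested, 110 were called different between the groups at p below 0.01 and FDR below 0.1 (0.584%), 39 of them higher in *Qk* cKO (0.207%) and 71 lower (0.377%). Over the same genes, 1650 (8.76%) had an unadjusted p below 0.05 in edgeR's quasi-likelihood test and 9315 (49.5%) a positive log2 fold change. Of the 9 genes chosen by function, 0 were called by edgeR's quasi-likelihood test and 0 by DESeq2, while 2, *Gmps* and *Atic*, had an unadjusted p below 0.05 in the former test. The 95% confidence intervals of these 9 genes lay within 0.799-fold and 1.28-fold. With 2 embryos a group, an exact permutation test of a single gene cannot go below a two-sided p of 0.333, so none is given. The embryos are described as independent replicates.

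**Figure D2:**
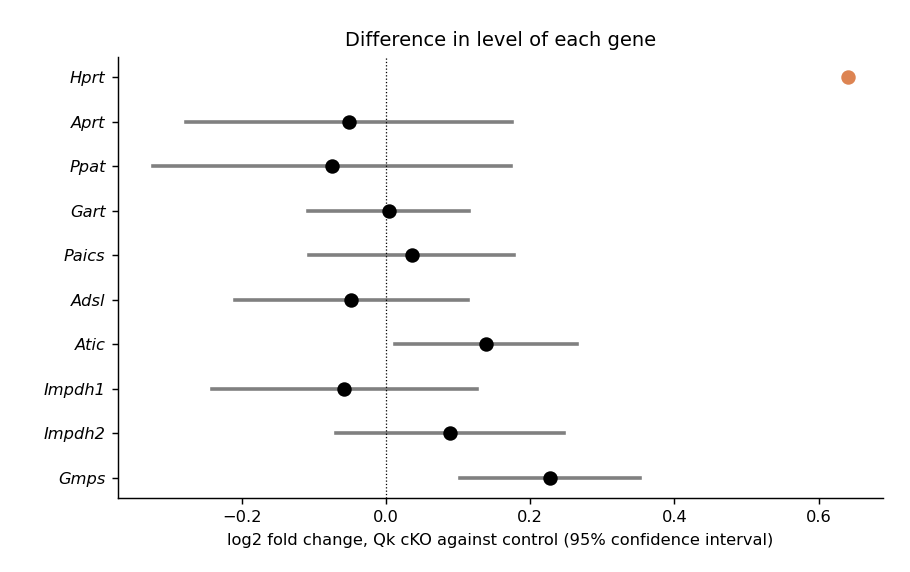
Log2 fold change of *Qk* cKO against control for each gene (points) with the 95% confidence interval of edgeR's quasi-likelihood test (grey lines) for the 9 genes chosen by function, and *Hprt* in orange with no interval because this difference chose it. The intervals of *Atic* and *Gmps* lie above 0, and those of the other 7 genes chosen by function include 0.

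In the de novo route up to IMP, 4 of the 5 enzymes among these genes had log2 fold changes between -0.075 and 0.036. *Ppat*, the amidophosphoribosyltransferase of the first committed step, had 7.49 and 6.01 RPKM in control and 6.38 and 6.33 RPKM in *Qk* cKO, so both *Qk* cKO embryos lay between the controls. This gave a log2 fold change of -0.075 with a standard error of 0.119 (FDR 0.902, edgeR's quasi-likelihood test). *Gart*, which carries out several of the following ring-building steps in 1 polypeptide, had 36.4 and 34.7 RPKM in control and 35.5 and 35.2 RPKM in *Qk* cKO. Again the *Qk* cKO embryos lay between the controls, and the log2 fold change was 0.0037 with a standard error of 0.054, turning to -0.0040 with upper-quartile scaling. *Paics*, which joins carboxylase and SAICAR synthetase activities, had 145 and 124 RPKM in control and 138 and 135 RPKM in *Qk* cKO, with the same pattern and a log2 fold change of 0.036 with a standard error of 0.068. In *Ppat*, *Gart* and *Paics*, the control replicate 1 embryo had the highest value of the 4 and the control replicate 2 embryo the lowest. The ratio of *Paics* to *Ppat* in RPKM was 19.3 and 20.7 in control and 21.7 and 21.3 in *Qk* cKO.

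*Adsl*, the lyase that acts both before IMP and on the branch to AMP, had 28.1 and 27.1 RPKM in control and 26.9 and 26.0 RPKM in *Qk* cKO. Both *Qk* cKO embryos lay below both controls, yet the log2 fold change of -0.048 was smaller than its standard error of 0.078 (FDR 0.902, edgeR's quasi-likelihood test). *Atic*, which closes the purine ring to give IMP, had 17.0 and 16.6 RPKM in control and 18.6 and 18.1 RPKM in *Qk* cKO. Here both *Qk* cKO embryos lay above both controls, with a log2 fold change of 0.14 and a standard error of 0.061. The unadjusted p was 0.0333 and the FDR 0.50 in edgeR's quasi-likelihood test.

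On the branch from IMP to GMP, *Impdh1* and *Impdh2* encode the paired dehydrogenases of the rate-limiting step, and *Gmps* encodes the synthetase that completes GMP. *Impdh1* had 19.4 and 19.2 RPKM in control and 18.6 and 18.1 RPKM in *Qk* cKO, the latter both lower, with a log2 fold change of -0.058 and a standard error of 0.088. *Impdh2* had 37.5 and 40.9 RPKM in control and 42.8 and 39.8 RPKM in *Qk* cKO, and these values overlapped. The log2 fold change of *Impdh2* was 0.089 with a standard error of 0.076 (FDR 0.826, edgeR's quasi-likelihood test). *Impdh2* exceeded *Impdh1* in all 4 embryos, with a ratio of 1.93 and 2.13 in control and 2.30 and 2.19 in *Qk* cKO.

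*Gmps* had 22.3 and 21.8 RPKM in control and 24.2 and 27 RPKM in *Qk* cKO. Both *Qk* cKO embryos lay above both controls, at 22.1 ± 0.316 RPKM in control and 25.6 ± 1.93 RPKM in *Qk* cKO (SD, n = 2 each). The log2 fold change was 0.23 with a standard error of 0.060 (95% confidence interval 0.10 to 0.35), or 1.17-fold. It passed the limit for the unadjusted p, with 0.00110, but not that for the FDR, with 0.151 in edgeR's quasi-likelihood test. Without *Qk* cKO replicate 1, the embryo with the lower of the *Qk* cKO values, the log2 fold change was 0.29. It was 0.16 without *Qk* cKO replicate 2, 0.24 without control replicate 1 and 0.21 without control replicate 2. *Gmps* was not called by DESeq2 (FDR 0.236) or by edgeR's exact test (FDR 0.370).

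The values of the groups did not overlap for 5 of the 10 genes, with *Hprt*, *Atic* and *Gmps* higher and *Adsl* and *Impdh1* lower in *Qk* cKO. Among all 12569 genes with a mean of at least 1 RPKM in both groups, the groups did not overlap for 40.6%, so 5 of 10 is near the background. *Hprt* was chosen by its difference, so its place in this count is a description only.

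The genes whose profile over the 4 embryos came closest to that of *Hprt* included *4930414N06Rik*, *Arhgap11a*, *Cth* and *Hspb8*. Likeness was measured as the Euclidean distance between log2 RPKM profiles, each centred on its own mean, over the 4 embryos. The profiles were those of 12561 genes, *Hprt* included. This distance was 0.0556 for *4930414N06Rik*, which had 6.17 and 5.27 RPKM in control and 8.08 and 9.66 RPKM in *Qk* cKO. It was 0.152 for *Arhgap11a*, which encodes a GTPase-activating protein, 0.156 for *Cth*, which encodes the cysteine-forming cystathionine gamma-lyase, and 0.170 for *Hspb8*, which encodes a small heat shock protein. These 4 genes were picked for likeness to *Hprt*, itself chosen by its difference, so their direction and any call are a description only. *Arhgap11a*, with 18.2 and 18.1 RPKM in control and 25.3 and 29.0 RPKM in *Qk* cKO, was the 1 of these 4 genes that was called. Its log2 fold change of 0.59 was 0.60 without control replicate 1 and 0.58 without control replicate 2, and then not called. Of the 9 purine enzymes, *Gmps* was closest to *Hprt* with a distance of 0.437, at rank 321, and *Aprt* was farthest with 0.770, at rank 9286.

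None of the 5 nearest tested genes on either side of *Hprt* on the X chromosome was called, against 0.584% of all genes. In edgeR's quasi-likelihood test 3 of these 10 had an unadjusted p below 0.05, against 8.76% of all genes. In DESeq2 0 of the 10 were called and 1 had such a p. *Phf6*, a chromatin-associated PHD finger gene that ends 31117 nt before *Hprt*, had 14.2 and 13.4 RPKM in control and 15.6 and 15.1 RPKM in *Qk* cKO. The log2 fold change of *Phf6* was 0.16 with a standard error of 0.055, in the same direction as that of *Hprt* but not called (FDR 0.302, edgeR's quasi-likelihood test). *Mospd1*, the neighbour farthest on the other side at 322934 nt, had a log2 fold change of 0.0087 with a standard error of 0.110. *Ccdc160*, with a log2 fold change of -0.69, and *Fam122b*, with 0.33, are weakly expressed at about 0.68 to 2.16 RPKM and were not called. *Gpc4*, *Gpc3* and *C430049B03Rik* had log2 fold changes of -0.042, 0.089 and -0.16, with standard errors of 0.096, 0.115 and 0.227. *A630012P03Rik*, *Plac1* and *Fam122c* had at most 14 tags in any embryo.

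**Figure D3:**
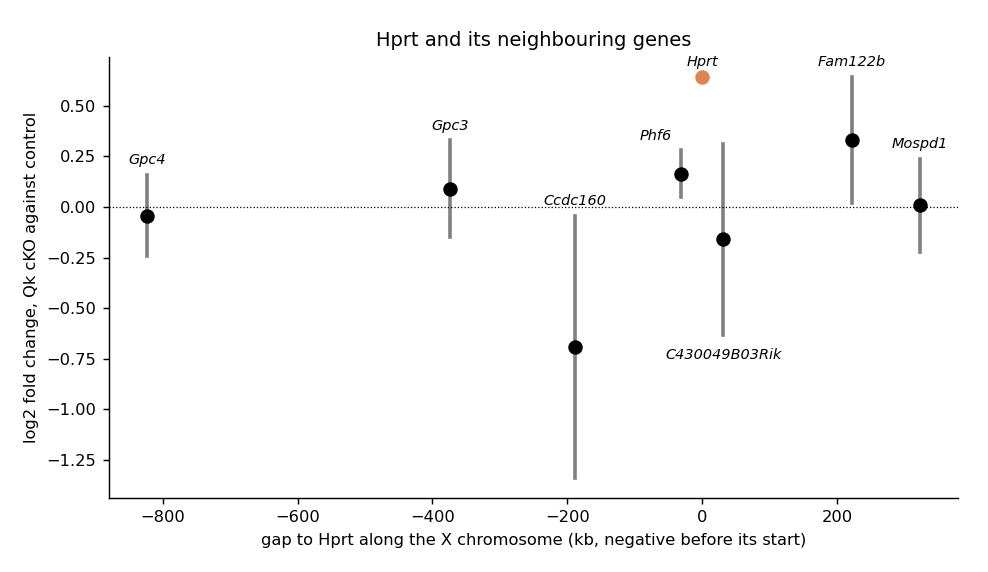
Log2 fold change of *Qk* cKO against control (vertical axis) for *Hprt* (orange) and, with 95% confidence intervals, for the 7 neighbours with a mean of at least 0.5 RPKM in both groups, by their gap to *Hprt* in kilobases (horizontal axis). *Hprt* stands at 0.64, whereas *Phf6*, 31117 nt away, stands at 0.16 and *Mospd1* at 0.0087.

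Beyond these 10 genes, 57 genes of nucleotide metabolism were listed by function, of which 1 was called, against 0.584% of all genes. An unadjusted p below 0.05 in edgeR's quasi-likelihood test was found for 10 against 8.76%, and a positive log2 fold change for 34 against 49.5%. The median log2 fold change of the 57 genes was 0.038. The median over all genes tested was -0.0025. The gene called was *Aldh1l1*, of the folate group, which oxidises 10-formyltetrahydrofolate, the donor of purine ring carbons. *Aldh1l1* had 12.3 and 11.5 RPKM in control and 7.93 and 7.41 RPKM in *Qk* cKO. It was lower in *Qk* cKO, with a log2 fold change of -0.62 and a standard error of 0.11 (FDR 0.0153, edgeR's quasi-likelihood test), and is also a widely used marker of astrocytes and radial glia. Without control replicate 1 its log2 fold change was -0.57 and without control replicate 2 -0.67, in both cases, as with filterByExpr (-0.62), not called. The other 12 genes of folate one-carbon supply were not called. Among them, *Shmt2*, the mitochondrial serine hydroxymethyltransferase, had 38.0 and 35.9 RPKM in control and 37.9 and 37.4 RPKM in *Qk* cKO. *Mthfd1*, which makes and interconverts cytosolic folate carriers, had 34.7 and 33.5 RPKM in control and 31.5 and 29.9 RPKM in *Qk* cKO.

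Of the 5 genes of PRPP supply and the remaining de novo enzyme, 0 were called and 4 had a positive log2 fold change, with a median of 0.099. *Prpsap2* and *Prpsap1*, which associate with PRPP synthetase, had log2 fold changes of -0.025 and 0.099. *Pfas*, the de novo enzyme that acts between steps catalysed by *Gart*, had 8.88 and 9.20 RPKM in control and 9.43 and 8.71 RPKM in *Qk* cKO, which overlapped. The synthetase gene *Prps2*, named after its values were seen, had 3.68 and 3.66 RPKM in control and 4.30 and 5.03 RPKM in *Qk* cKO, both higher, with a log2 fold change of 0.36 and an FDR of 0.30 in edgeR's quasi-likelihood test. Of the 9 genes of the AMP branch and of nucleotide interconversion, 0 were called, and *Guk1* and *Adss*, guanylate kinase and adenylosuccinate synthetase, had log2 fold changes of 0.0061 and 0.0065. *Adssl1*, another adenylosuccinate synthetase gene, also named after its values were seen, was at 0.545 and 0.850 RPKM in control and 1.48 and 1.07 RPKM in *Qk* cKO, with a log2 fold change of 0.89 and an FDR of 0.307 in edgeR's quasi-likelihood test. Of the 13 genes of purine salvage and breakdown, 0 were called, with a log2 fold change of -0.29 in the nucleotidase gene *Nt5c* and -0.0035 in the inosine triphosphatase gene *Itpa*. The breakdown enzymes *Xdh* and *Uox* were close to absent, at no more than 0.0243 RPKM in any embryo. In each of these 3 groups 1 gene (*Prps2*, *Adssl1* and *Nt5c*) had an unadjusted p below 0.05 in edgeR's quasi-likelihood test. Of all genes, 8.76% had such a p.

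In pyrimidine synthesis 0 of 13 genes were called, 2 had an unadjusted p below 0.05 in edgeR's quasi-likelihood test, and 8 had a positive log2 fold change. Over all genes tested, 0.584% were called, 8.76% had such a p and 49.5% a positive log2 fold change. *Ctps*, which makes CTP, and *Uck2*, a uridine-cytidine kinase, had log2 fold changes of 0.078 and 0.087. In deoxynucleotide supply 0 of 4 genes were called, yet 3 had an unadjusted p below 0.05 in edgeR's quasi-likelihood test and 4 a positive log2 fold change, with a median of 0.22. *Rrm2*, a subunit of ribonucleotide reductase, had 92.5 and 78.5 RPKM in control and 88.1 and 88.2 RPKM in *Qk* cKO. Its partner *Rrm1* had 72.5 and 64.1 RPKM in control and 78.8 and 79.6 RPKM in *Qk* cKO, with a log2 fold change of 0.23 and a standard error of 0.073 (FDR 0.277, edgeR's quasi-likelihood test).

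**Figure D4:**
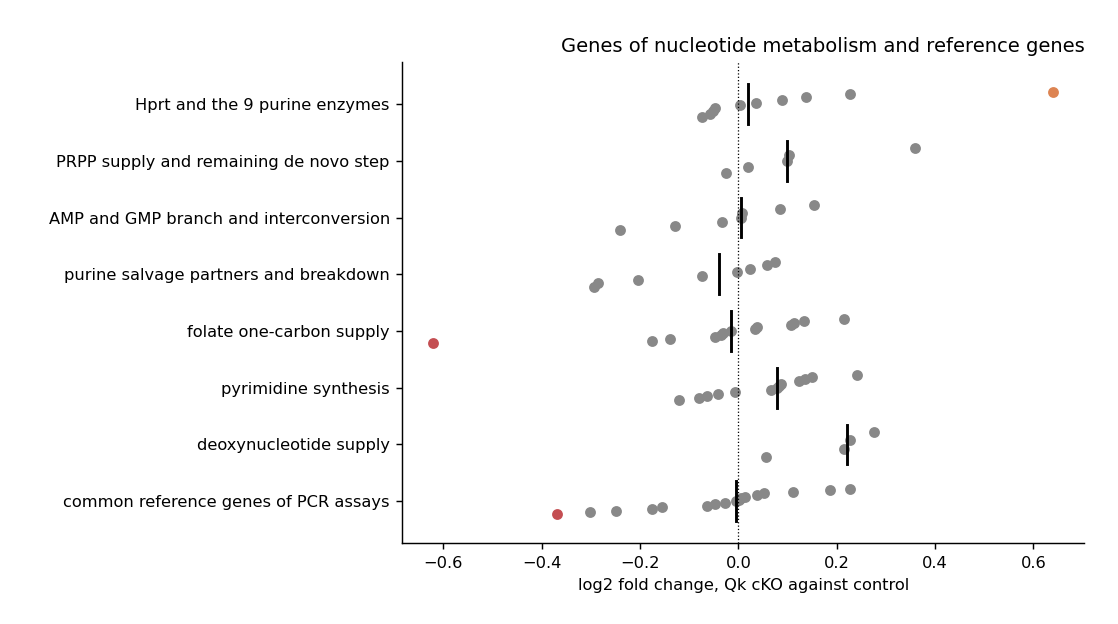
Log2 fold change of *Qk* cKO against control (horizontal axis) of each gene with a mean of at least 1 RPKM in both groups, by gene group, with called genes in red, others in grey, *Hprt*, chosen by this difference, in orange and a black line at the median of the genes drawn. *Aldh1l1* and *Gapdh* are the genes drawn in red, and the medians lie between -0.039 and 0.22.

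*Hprt* is used as an internal reference in many PCR assays, so it was set beside 17 other common reference genes. Of these, 1 was called against 0.584% of all genes, *Gapdh*, which encodes a glycolytic enzyme. An unadjusted p below 0.05 in edgeR's quasi-likelihood test was found for 4, against 8.76% of all genes. *Gapdh* had 46.7 and 48.6 RPKM in control and 35 and 38.1 RPKM in *Qk* cKO. It was lower in *Qk* cKO, at a log2 fold change of -0.37 with a standard error of 0.090 (FDR 0.0959, edgeR's quasi-likelihood test), but was not called by edgeR's exact test, with filterByExpr (-0.37) or without control replicate 1 (-0.40), control replicate 2 (-0.34) or *Qk* cKO replicate 1 (-0.32). *Gapdh* has many near-identical pseudogenes, so its tags depend on how reads shared with them were assigned. The ratio of *Hprt* to *Gapdh* in RPKM was 0.603 and 0.499 in control and 1.09 and 1.13 in *Qk* cKO. *Hprt* was chosen as higher and *Gapdh* is the reference gene called lower, so this ratio is a description only. The reference genes with the highest levels, *Eef1a1*, a translation elongation factor, and *Actb*, cytoplasmic actin, had log2 fold changes of 0.11 and 0.00046.

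Markers of cell types and of cell division were read in the same embryos. Of 10 markers of dividing cells, 2 were called against 0.584% of all genes, *Ccna2* and *Bub1*, both higher in *Qk* cKO. The FDR of *Ccna2* was 0.0713 and that of *Bub1* 0.0459 in edgeR's quasi-likelihood test. All 10 had a positive log2 fold change, against 49.5% of all genes, with a median of 0.17. Their summed level was 704 and 606 RPKM in control and 736 and 717 RPKM in *Qk* cKO, and none was at 0. Of 8 radial glia markers, 2 were called against the same 0.584%, *Slc1a3* and *Fabp7*, both lower. A positive log2 fold change was found for 3 (*Pax6*, *Nes* and *Hes1*), and DESeq2 called *Fabp7* alone. The summed level of the 8 was 1633 and 1512 RPKM in control and 1329 and 1267 RPKM in *Qk* cKO, with *Fabp7* alone at 989 and 901 RPKM in control and 703 and 667 RPKM in *Qk* cKO. None of the 8 markers of cortical neurons, 5 of intermediate progenitors, 6 of the subpallium, 5 of endothelium, 5 of microglia or 6 of meninges was called by edgeR's quasi-likelihood test or by DESeq2, with between 0 and 3 of each group at an unadjusted p below 0.05 in edgeR. Of all genes, 8.76% had such a p. The group with 3 was that of meninges, with *Col3a1*, *Dcn* and *Lum*, all at a positive log2 fold change. In the same group *Col1a2* was at 0.0097, and *Col1a1* and *Pdgfrb* were negative, at -0.12 and -0.033. The summed level of the 6 meningeal markers was 135 and 125 RPKM in control and 124 and 164 RPKM in *Qk* cKO. It was highest in *Qk* cKO replicate 2, as were *Hprt* and *Gmps*. The 5 erythroid markers measured summed to 269 and 239 RPKM in control and 362 and 259 RPKM in *Qk* cKO, and *Hbb-bt* and *Hbb-bs* are not analysed here. All 5 had a positive log2 fold change, with a median of 0.32, against 49.5% of all genes. Of these 5, 0 were called by edgeR's quasi-likelihood test or by DESeq2, and 1, *Hbb-y*, had an unadjusted p below 0.05 in edgeR. The part of these markers in the levels of *Hprt*, *Gmps* and *Aldh1l1* was not tested. In such bulk tissue, more or fewer cells of a type and more or less RNA per cell cannot be told apart.

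No splicing event of *Hprt* was among the 38240 events. The other 9 genes had 23 events, of which 9, in 6 genes, reached a coverage of at least 20 junction tags and were tested. Each pair of isoforms counts as an event, so a *Gart* event with several 3′ splice sites is counted more than once. Coverage means the smallest total of junction tags for either isoform or either group. Fisher's exact test on summed isoform tags called 0 of these 9, against 862 of all 11500 events tested (7.50%), and 1 had an unadjusted p below 0.05. In edgeR, with an interaction term for isoform and group, 0 of the 9 were called and 0 had an unadjusted p below 0.05. That test called 64 of all 11500 events tested, far fewer than Fisher's exact test. The coverage of the 9 events was 24.8 to 97 tags with a median of 32, less than the median of 65.8 over all events tested, so that small differences were not detectable at this depth. Inclusion below was calculated from junction tags, and its Wilson intervals cover counting error only.

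Of the 4 cassette exons tested, that of *Adsl* was mostly included and the other 3 were mostly skipped over summed tags. Those of *Impdh1* and *Adsl* are shown with 10 nt of the flanking exons in lower case and the cassette exon in capitals, because both are coding exons whose length is not a multiple of 3.
*Impdh1*: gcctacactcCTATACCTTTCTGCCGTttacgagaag
*Adsl*: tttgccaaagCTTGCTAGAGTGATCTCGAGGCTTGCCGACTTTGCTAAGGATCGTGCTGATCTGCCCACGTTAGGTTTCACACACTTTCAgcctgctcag
The *Impdh1* exon of 17 nt (chr6:29201888-29201904, GRCm38, minus strand) is exon 5 of Impdh1-209, the 1 transcript of the gene that contains it. It was included in 3.09% and 8.70% of transcripts in control and 5.08% and 13.2% in *Qk* cKO, and in both groups replicate 2 had the higher value. The inclusion over summed tags was 5.82% in control (95% Wilson interval 2.61 to 12.5) and 8.70% in *Qk* cKO (4.68 to 15.6), with a two-sided p of 0.406 in Fisher's exact test. The *Adsl* exon of 80 nt (chr15:80956213-80956292, GRCm38, plus strand) is exon 4 of Adsl-201. It was included in 95.5% and 94.8% of transcripts in control and 94.1% and 89.5% in *Qk* cKO. Both *Qk* cKO embryos lay below both controls, but the difference of 3.17 percentage points was not called (p = 0.306, Fisher's exact test).

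The smallest p among the 9 events belonged to intron 8 of *Adsl* (chr15:80963730-80963879, GRCm38), of 150 nt. It was retained in 8.0% and 5.61% of transcripts in control and 1.08% and 6.17% in *Qk* cKO, so the groups overlapped. Over summed tags the retention was 6.75% against 3.52%, with an unadjusted p of 0.0302 and an FDR of 0.229 in Fisher's exact test, and with a p of 0.187 in edgeR's interaction test. The low value came from *Qk* cKO replicate 1, with 3 tags for retention and 138 for splicing.

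Among the other events, a noncoding *Aprt* exon of 126 nt, exon 3 of Aprt-205, was included in 18.3% and 7.81% of transcripts in control and 50% and 18.4% in *Qk* cKO. This was the largest difference of the 9 events by junction tags, at 15.5 percentage points higher in *Qk* cKO. With the tags inside the exon counted as well, p was 0.850 in Fisher's exact test. The alternative 3′ splice sites at the end of intron 1 of *Gart*, 3 nt apart, differed more between replicates than between groups, with 26.5% and 52.6% use of the proximal site in control and 42.6% and 55.4% in *Qk* cKO. Those of *Paics*, also 3 nt apart in intron 1, were at 95.5% to 97.1% in all embryos. The *Impdh2* exon of 72 nt was included in 1.73% to 3.91%, intron 3 of *Impdh2* was retained in 2.15% to 4.75%, and intron 13 was retained in 33.3% and 50% of control and 46.7% and 12% of *Qk* cKO transcripts on 32 tags of coverage.

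**Figure D5:**
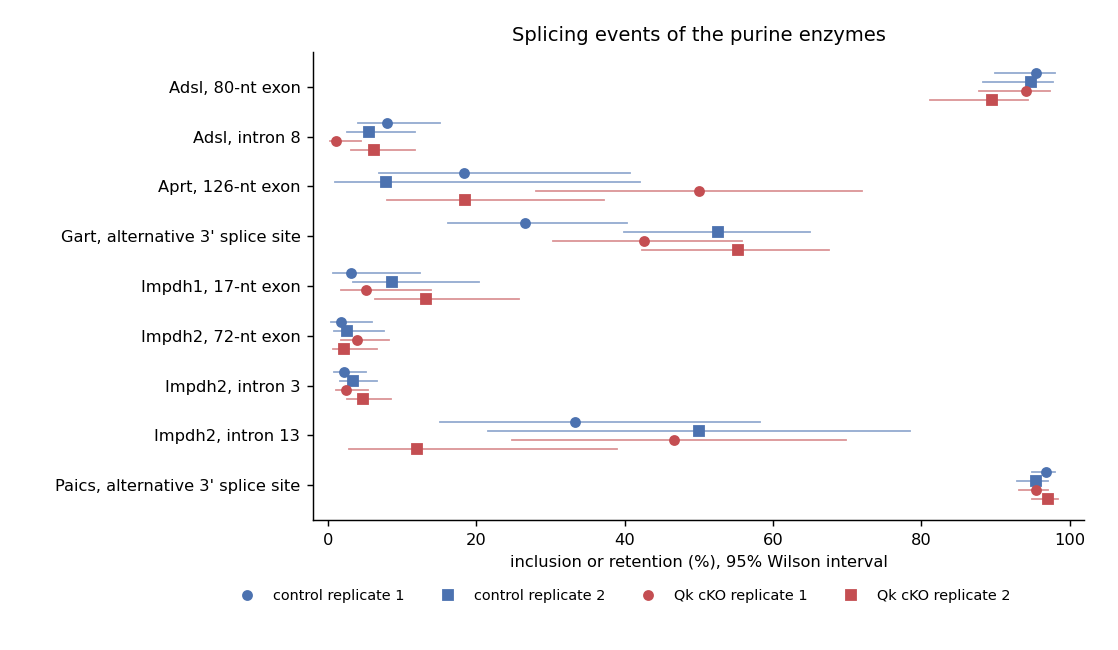
Inclusion of cassette exons, retention of introns or use of the proximal 3′ splice site (horizontal axis, percent of transcripts by junction tags) for the 9 tested events, with 1 point per embryo, control in blue and *Qk* cKO in red, circles for replicate 1, squares for replicate 2 and lines for the 95% Wilson intervals. In 8 of the 9 events the interval of each control embryo overlaps that of each *Qk* cKO embryo, and in *Gart* that of control replicate 1 (16.2 to 40.3) lies below that of *Qk* cKO replicate 2 (42.4 to 67.6).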

How the data were processed

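The authors mapped paired 150-nt reads with OLego (genome build mm10, with exon junctions added) and counted tags with Quantas (versions are not given in the sources used here). For each gene they deposited an estimated count of tags, not whole for 8.41% to 12.1% of genes, and its RPKM, and for each splicing event estimated counts per isoform and junction, so reads shared between similar genes were assigned before deposit. Groups and replicate numbers came from the labels. The paper's methods speak of 3 replicates, its results and the labels of 2.

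Estimated counts were rounded and compared by edgeR's quasi-likelihood test (edgeR 4.0.16 in R 4.3.3, with TMM) over all 18834 genes with at least 1 tag. Calls required p below 0.01 with an FDR, by Benjamini and Hochberg, below 0.1. The standard error is the log2 fold change divided by the square root of F. The RPKM values, as deposited, give the levels. Splicing events with a coverage of at least 20 were compared with Fisher's exact test on tags summed over replicates, adjusted within each event type, which takes tags as independent. Alternatives were DESeq2 1.42.0, edgeR's exact test, upper-quartile scaling, filterByExpr, the replicate number as a block, junction tags only, coverage limits of 10 and 50, edgeR's interaction test, and each sample left out in turn. The edgeR, DESeq2, Fisher and Cochran-Mantel-Haenszel tests were each tested on simulated data.

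The genes and gene lists were chosen with earlier results of these data known. Named are the 10 genes, the 5 genes most like *Hprt* (1 of which is not reported here), the 5 nearest tested genes on each side of it, of other lists the called genes and otherwise up to 2 with the highest mean RPKM, and every tested splicing event. *Qk*, *Pfas*, *Prps2*, *Adssl1*, *Xdh*, *Uox*, *Ppia* and the markers were named after their values were seen.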

Additional observations from a re-analysis of the deposited data

How the results depend on the processing

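The log2 fold change of *Hprt* lay between 0.63 and 0.64 under the alternatives that use all 4 samples, and between 0.53 and 0.75 with each sample left out in turn. *Hprt* was no longer called with filterByExpr (0.64), without control replicate 1 (0.75) or without control replicate 2 (0.53), and the lone sample of a group is then assumed to vary like the other group. Of all genes, 110 were called in the reported test, 11 with filterByExpr, 57 with the exact test, 192 with the replicate block, and 0 to 428 with a sample left out, with 0 among 18597 genes without control replicate 2. Of the 9 other enzymes 0 were called under every alternative except 1 (*Gmps*) without *Qk* cKO replicate 1. Of the 57 nucleotide genes 0 were called with filterByExpr, 2 (*Aldh1l1* and *Rrm1*) with the replicate block, and 0 to 2 with a sample left out. Of the 17 reference genes 0 were called with the exact test or filterByExpr, 2 (*Gapdh* and *Ppia*) with the block, and 0 to 3 with a sample left out. The direction reversed for *Gart* with upper-quartile scaling (-0.0040). With a sample left out the direction also reversed for *Aprt* (-0.19 to 0.073), *Ppat* (-0.23 to 0.095), *Gart* (-0.034 to 0.040) and *Paics* (-0.074 to 0.15), none of them called. The cause of these changes was not tested. The replicate block gave *Hprt* 0.64 and changed no call of the 10 genes, and 0 of their splicing events were called under any alternative. The deviations of same-numbered samples from their group means correlated at 0.53 over 12958 genes but at -0.066 over the 12467 autosomal ones, so the numbers were not taken as pairs. Leaving out a sample gave inclusion without a test. The limits of these data are 2 embryos a group and, for splicing, a coverage of 24.8 to 97 tags.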
